A study of Mus musculus with 8 samples.

Results

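The 4 libraries described here were made from retina of rd10 mice given phosphate-buffered saline (PBS), the control group of the study, and are numbered PBS 1 to 4 in the labels. They were chosen by that label alone, out of 8 libraries in all, and the other 4, from rd10 mice given small intracellular vesicles (sIVs), were not used. The rd10 line carries a mutation of Pde6b, and that allele is shared by every library of the study. The sources used here do not give age, sex, the dose or route of the saline, or when retinas were taken. The labels call the libraries replicate biosamples without saying whether each was 1 animal or a pool. No wild-type retina was analysed here, so a level below is what this retina held and not a measure of what it had lost. In whole-retina RNA, fewer cells of a type and less RNA per cell cannot be told apart.

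The retina is layered: rod and cone photoreceptors turn light into an electrical signal, bipolar and horizontal cells receive it, amacrine and ganglion cells process it and carry it to the brain, and Müller glia span the whole thickness. In photoreceptors an opsin activates transducin, transducin activates the phosphodiesterase PDE6, and the fall in cGMP that follows closes a cyclic nucleotide-gated channel. Rods and cones use related but separate genes for most of these steps. In rd10 mice the beta subunit of the rod PDE6 is altered, rods degenerate first and cones follow, and Müller glia and microglia, the resident macrophages of the retina, are known to react.

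Totals ran from 14640235 to 15948291 counts per library, and between 25941 and 26584 genes had at least 1 count. Every pair of libraries differed by more than counting noise, with a chi-square per gene between 3.85 and 13.1. Such values cannot tell separate animals from separate preparations of the same RNA. Each library was counted as 1 sample because the labels number them as replicates. Pearson's r of log2 levels across 13613 genes, which are not independent replicates, was between 0.984 and 0.990 for the 6 pairs. Library 4 stood apart. It was 1 member of each of the 3 pairs with the lowest r and the highest chi-square, and 73 genes were at least 1.5-fold above and 73 at least 1.5-fold below every other library in it, against 17 to 26 above and 17 to 41 below in each of the others. Library 4 also differed in sex-linked transcripts. Xist, the noncoding RNA that silences 1 X chromosome in female cells, had 38894, 45884 and 40266 counts in libraries 1 to 3 and 3 counts in library 4. Ddx3y, a Y-linked RNA helicase gene, had 0 counts in libraries 1 to 3 and 1283 in library 4, and Eif2s3y, Kdm5d and Uty had at most 1 count in any of libraries 1 to 3 and 1705, 737 and 468 in library 4. The sex-linked transcripts and whatever else set library 4 apart cannot be told apart, so values are given for each library, and means are repeated without library 4 where they move. With a single group there was no contrast to test, and no p-value is given.

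Levels are FPKM, fragments scaled to gene length and to library size, so that genes of different length can be set side by side. The length is 1 deposited value per gene and need not be that of the transcripts present. Ranks, shares and ratios between genes depend on it. A transcript share is the FPKM of a gene or list as a percent of the FPKM sum of its library. Of 54532 annotated genes, 13956 reached 1 FPKM in all 4 libraries, 12004 of them protein-coding and 313 long intergenic noncoding RNAs. Another 23486 genes had no count in any library, among them 4415 of the 22046 protein-coding genes. Abundance was concentrated: 1053 genes held 50% of the transcripts and 7846 held 90%, and 236 genes were at 100 FPKM or more in every library. The 100 most abundant nuclear protein-coding genes made up 14.7%, 14.0%, 14.6% and 14.9% of transcripts in libraries 1 to 4.

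Photoreceptor genes were prominent at the top of the nuclear transcriptome. Gnat1, the alpha subunit of rod transducin (ENSMUSG00000034837, chromosome 9, 107674474 to 107679712, mm10), stood at 1943, 1854, 2048 and 2409 FPKM. It was lowest in library 2 and highest in library 4. High places were also held by Prph2 and Rom1, structural proteins of the outer segment disc rim, at means of 1022 ± 57.5 and 815 ± 73.5 FPKM (SD, n = 4), and by Rbp3, the retinoid carrier of the space around the outer segments, at 807 ± 66.8 FPKM.

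Other genes among the 20 most abundant fell into a few roles. Further photoreceptor genes were Rcvrn, the calcium sensor recoverin (587 ± 77.0 FPKM), Guca1a, an activator of guanylate cyclase (539 ± 33.1), Pdc, which binds transducin beta-gamma (537 ± 35.5), Gnb1, the transducin beta subunit that other cells also use (615 ± 41.03), and Pde6g, the inhibitory subunit of rod PDE6 (503 ± 60.4 FPKM, SD, n = 4 for each). Aldoa and Pkm, enzymes of glycolysis, stood at 784 ± 43.6 and 545 ± 24.1 FPKM, and Ckb, the brain creatine kinase, at 453 ± 49.0 FPKM. Glul and Apoe, glutamine synthetase and apolipoprotein E, were the most abundant genes of the Müller glia list. The rest were Eef1a1 (translation elongation, 779 ± 31.1 FPKM), Mgarp (a mitochondrial protein, 636 ± 25.1), Rplp1 (ribosome, 566 ± 46.9), Ubb (ubiquitin, 529 ± 42.8) and Fth1 (ferritin heavy chain, 498 ± 27.0 FPKM). By list, the 100 most abundant of 22033 nuclear coding genes held 13 of 36 shared photoreceptor genes, 12 of 18 rod genes and 7 of 16 glycolysis genes. They also held 4 of 25 Müller glia genes, 3 of 20 photoreceptor ribbon synapse genes and 1 of 16 cone genes, and 57 were in none of the lists used here.

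**Figure D1:**
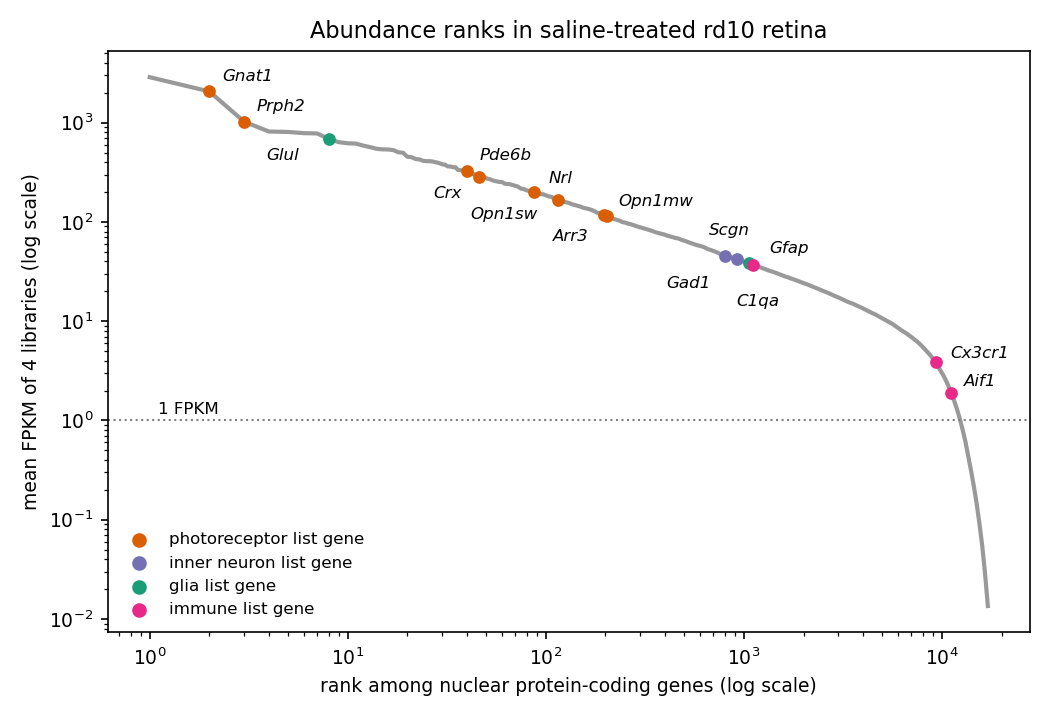
Mean FPKM of the 4 libraries against rank for nuclear protein-coding genes, both on log scales. The grey line is every such gene above the lower end of the axis, and points are named members of the marker lists. The rod gene Gnat1 and the shared photoreceptor gene Prph2 lie at the left, at 2064 and 1022 FPKM, the bipolar and amacrine genes Scgn and Gad1 lie at 45.7 and 42.0 FPKM, and the microglial genes Cx3cr1 and Aif1 lie at 3.88 and 1.90 FPKM.

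Upstream sequences of 4 photoreceptor genes are shown because they hold TAATCC, the core letters that homeobox factors of the OTX and CRX family are known to bind, and because Crx itself is among the most abundant factors here. The sequences are the 250 bases before the transcription start in RefSeq (GRCm38.p6), written 5′ to 3′ along the gene's strand, with TAATCC or its complement strand GGATTA in capitals. Glul, from Müller glia, is given as an example without a match.
Rbp3: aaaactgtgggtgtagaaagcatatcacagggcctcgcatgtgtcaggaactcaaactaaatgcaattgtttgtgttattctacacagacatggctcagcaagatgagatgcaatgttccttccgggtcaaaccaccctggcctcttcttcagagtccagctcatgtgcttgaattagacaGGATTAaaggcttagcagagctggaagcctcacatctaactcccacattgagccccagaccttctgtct
Guca1a: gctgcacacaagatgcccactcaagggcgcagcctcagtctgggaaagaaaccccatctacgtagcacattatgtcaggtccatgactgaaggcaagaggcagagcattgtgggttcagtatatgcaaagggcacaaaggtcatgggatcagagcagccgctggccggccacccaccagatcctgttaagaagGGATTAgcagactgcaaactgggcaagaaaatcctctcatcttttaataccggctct
Sag: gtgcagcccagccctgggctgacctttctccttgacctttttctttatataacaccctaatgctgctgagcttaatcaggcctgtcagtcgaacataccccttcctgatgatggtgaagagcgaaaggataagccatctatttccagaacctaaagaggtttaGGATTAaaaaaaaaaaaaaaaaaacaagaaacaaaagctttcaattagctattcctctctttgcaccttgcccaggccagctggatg
Crx: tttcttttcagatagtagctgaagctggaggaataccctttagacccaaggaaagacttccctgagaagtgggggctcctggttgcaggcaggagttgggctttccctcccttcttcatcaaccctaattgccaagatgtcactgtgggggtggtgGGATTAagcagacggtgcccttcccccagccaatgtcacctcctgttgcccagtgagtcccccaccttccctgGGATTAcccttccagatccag
Glul: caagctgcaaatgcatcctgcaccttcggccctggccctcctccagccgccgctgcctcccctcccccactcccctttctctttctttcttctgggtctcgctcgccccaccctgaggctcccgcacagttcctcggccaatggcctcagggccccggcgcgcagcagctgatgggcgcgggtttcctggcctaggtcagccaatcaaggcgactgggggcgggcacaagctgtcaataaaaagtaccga
These windows are chr14:33953753-33954002 on the plus strand for Rbp3, chr17:47400607-47400856 on the minus strand for Guca1a, chr1:87803430-87803679 on the plus strand for Sag, chr7:15879956-15880205 on the minus strand for Crx and chr1:153899679-153899928 on the plus strand for Glul. The match began 69 bases before the start in Rbp3, 57 in Guca1a and 87 in Sag, and Crx had 2, at 94 and 21 bases. Searched on both strands in windows that add the first 50 transcribed bases, TAATCC stood in 5 of 14 promoters of the rod list (35.7%), 11 of 31 of the shared photoreceptor list (35.5%) and 2 of 19 of the cone list (10.5%). It stood in 7.06% of all 32851 promoters of that length and in 9.09% of those of the inner neuron lists. For the immune lists it was 11.3% and for the glia lists 14.5%. The cone list, with 2 of 19, lay within the range of these. The table matched 13 of 18 rod, 24 of 36 shared and 11 of 16 cone genes, and a match describes letters only and is no evidence of binding.

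The 18 rod genes together made up 3.27%, 3.16%, 3.42% and 3.58% of transcripts in libraries 1 to 4 (mean 3.36% ± 0.18, SD, n = 4, and 3.28% without library 4). All 18 were above 1 FPKM in every library, 16 were among the 1000 most abundant nuclear coding genes, and the lowest, Susd3, stood at 29.6, 26.6, 32.6 and 31.2 FPKM. Pde6b, the gene altered in rd10 (ENSMUSG00000029491, chromosome 5, 108388391 to 108432397, mm10), was transcribed at 324, 311, 328 and 345 FPKM, which placed it at rank 40 of 22033 nuclear coding genes. Its spread over the 4 libraries was small, with a coefficient of variation (CV, the SD as a percent of the mean, on scaled counts) of 4.59%. Pde6a, the alpha subunit that pairs with it, stood at 441, 412, 417 and 436 FPKM, 1.27 to 1.36 times Pde6b in the same library. Sag, the rod arrestin, was at 341, 325, 369.7 and 411 FPKM, and Nrl, the transcription factor that directs rod fate, at 212, 177, 211 and 204 FPKM. Nr2e3, which represses cone genes in rods, was the rod gene other than Samd7 with the widest spread, at 119, 118, 137 and 93.4 FPKM. The channel subunit genes Cnga1 and Cngb1 were lower, at means of 94.9 and 78.1 FPKM. Of the 18 rod genes 13 were lowest in library 2, against 27.0% of all 13613 genes with counts enough for a CV. No rod gene had a CV above 25%, which 4.46% of all genes had, so that count is near the background.

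Cone transcripts were scarcer: the sum of the 18 rod genes was 9.65, 8.92, 9.61 and 8.72 times that of the 16 cone genes. The cone list made up 0.339%, 0.354%, 0.355% and 0.410% of transcripts (mean 0.365% ± 0.0312, and 0.350% without library 4). Its most abundant member was Gnb3, the cone transducin beta subunit that ON bipolar cells also use, at 305, 303, 254 and 261 FPKM. The short-wavelength opsin Opn1sw stood at 158, 148, 176 and 182 FPKM and the middle-wavelength opsin Opn1mw at 102, 109.8, 112 and 151 FPKM. Opn1sw was thus the more abundant cone opsin in every library, by 1.55, 1.35, 1.57 and 1.21 times. Arr3, the cone arrestin, was at 83.2, 88.2, 98.0 and 191 FPKM, so that library 4 lay far above the other 3, which were close together. In library 4, 14 of the 16 cone genes were at their highest, against 32.3% of all 13613 genes with enough counts for a CV, and none was at its lowest. Opn1mw and Arr3 lie on the X chromosome. The 440 X-linked genes other than Xist had a median ratio of library 4 to the mean of the others of 1.03, against 1.00 for 13146 autosomal genes, and 40.9% of them were highest in library 4, against 31.9% of autosomal genes. The autosomal cone genes Pde6c (38.2, 42.3, 43.5 and 58.3 FPKM) and Gnat2 (49.5, 49.9, 60.0 and 66.2 FPKM) were also highest in library 4.

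Set side by side within a library, rod and cone counterparts differed by factors that varied between steps of the cascade. These factors also depend on the listed gene lengths, such as 8904 bases for Sag and 2355 for Arr3. Whether those lengths match the transcripts present was not tested. In counts, Sag had 47159, 45275, 47482 and 51928 in libraries 1 to 4 and Arr3 had 3049, 3249, 3330 and 6368. The difference was widest for the transducin alpha subunits, where Gnat1 was 34.1 to 39.3 times Gnat2. It was narrowest for the beta subunits, where Gnb1 was 1.87 to 2.54 times Gnb3. Other cells also use Gnb1, and ON bipolar cells use Gnb3, so that ratio does not set rods against cones alone. In between lay the PDE6 inhibitory subunits, with Pde6g 23.7 to 26.8 times Pde6h, and the exchangers, with Slc24a1 17.6 to 19.8 times Slc24a2. Ratios for the channel, arrestin and catalytic PDE6 subunits were lowest in library 4. Cnga1 was 22.3, 22.1, 20.99 and 13.6 times Cnga3 in libraries 1 to 4, and Cngb1 was 14.4, 13.2, 13.8 and 8.68 times Cngb3. Sag was 4.09, 3.69, 3.77 and 2.16 times Arr3, and the sum of Pde6a and Pde6b was 20.1, 17.1, 17.1 and 13.4 times Pde6c. In each of these 4 pairs the cone gene was at its highest in library 4. The ratios by library are plotted for 9 counterpart pairs.

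**Figure D2:**
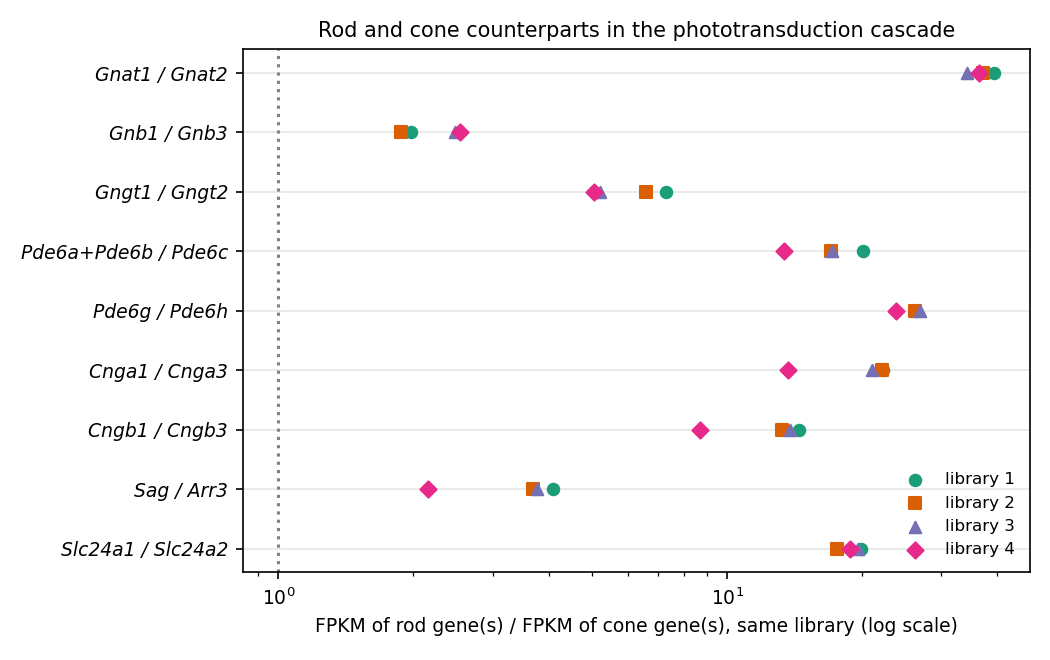
FPKM of each rod gene or gene sum divided by that of its cone counterpart in the same library, on a log scale, with 1 point per library. Gnb1 and Gnb3 are also used by cells other than photoreceptors. Every ratio lies above 1, from 1.87 for Gnb1 to Gnb3 in library 2 to 39.3 for Gnat1 to Gnat2 in library 1, and library 4 lies to the left of the other 3 for both channel subunits and for arrestin.

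Genes used by both photoreceptor types varied little between libraries. The 36 shared genes made up 2.93%, 2.82%, 2.85% and 2.75% of transcripts, all were above 1 FPKM in every library, and their median CV was 6.21%. Crx, the homeobox factor that activates photoreceptor genes, was at 289.6, 283, 295 and 276 FPKM (CV 2.66%). Among genes to which the deposited table gives a transcription factor family, a ranking made after values were seen, Crx was highest, followed by Neurod1 at a mean of 213 FPKM and Nrl at 201 FPKM. The 20 genes of the ribbon synapse, the release site of photoreceptors and bipolar cells, made up 0.648% to 0.673% of transcripts, led by the glutamate transporter Slc17a7 (228 ± 21.02 FPKM), Vamp2 (219 ± 6.76) and Snap25 (201 ± 17.1 FPKM, SD, n = 4), of which the last 2 serve all synapses. Among the 9 genes of the visual cycle list, Rdh8, the photoreceptor retinol dehydrogenase, led at 60.2 ± 5.13 FPKM, followed by Dhrs3 at 25.6 and Rdh14 at 17.3 FPKM.

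**Figure D3:**
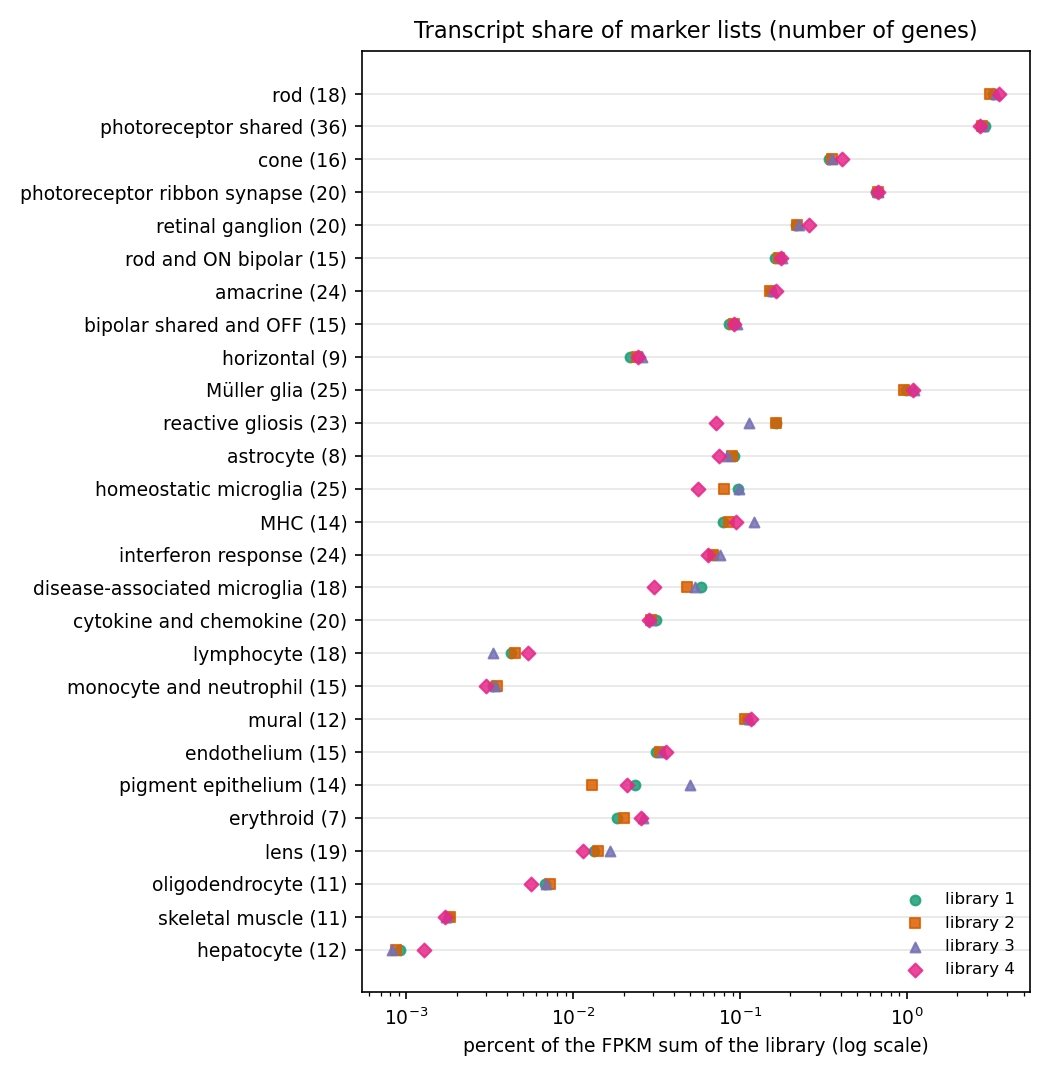
Share of the FPKM sum held by each marker list in each library, on a log scale, with the number of genes in the list in brackets. Rod and shared photoreceptor lists lie near 3%, inner neuron lists between 0.0218% and 0.259%, and the lymphocyte list between 0.00329% and 0.00535%. Points lie farthest apart for pigment epithelium, where the highest library was 3.84 times the lowest, and for reactive gliosis, at 2.29 times.

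Inner neurons contributed 0.638%, 0.657%, 0.683% and 0.716% of transcripts over 83 genes, of which 79 were above 1 FPKM in every library. Shares depend on how many genes a list holds and how abundant they are, so they do not give cell numbers. The rod and ON bipolar list made up 0.161% to 0.178%. It was led by the G protein subunit Gng13 (71.4 ± 9.17 FPKM), the calcium-binding Cabp5 (41.8 ± 2.73) and Lrtm1 (40.5 ± 4.12 FPKM), while Grm6, the glutamate receptor of ON bipolar dendrites, was at 34.8, 37.6, 38.1 and 46.4 FPKM. The list shared by bipolar types or marking OFF types made up 0.0858% to 0.0959%, with the calcium-binding Scgn (45.7 ± 4.88 FPKM) and the kainate receptor Grik1 (20.9 ± 2.26 FPKM). As sums, both bipolar lists were lowest in library 1 and highest in library 3. By member, 6 of 15 rod and ON bipolar genes were highest in library 3 and 7 in library 4. In the shared and OFF list these were 4 and 5 of 15, against 19.2% and 32.3% of all genes. In each list 7 of 15 genes were lowest in library 1, against 2996 of all 13613 genes. Which of libraries 3 and 4 was higher for bipolar genes is thus unclear.

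Amacrine genes made up 0.151% to 0.165% of transcripts, with the GABA-synthesising Gad1 (42.0 ± 3.29 FPKM) and C1ql1 (40.3 ± 3.97 FPKM), and Ptf1a, a factor of amacrine development, was under 0.1 FPKM in all 4. The 9 horizontal cell genes were the scarcest neuronal list at 0.0218% to 0.0259%. Prox1, which bipolar and amacrine cells also use, led at 27.3 ± 2.06 FPKM, ahead of the calcium-binding Calb1 at 19.3 ± 1.70 and Adra2a at 7.06 ± 1.62 FPKM. Ganglion cell genes made up 0.216%, 0.219%, 0.226% and 0.259%, and all 20 were above 1 FPKM in every library. The neurofilament gene Nefl was at 109, 113, 112 and 136 FPKM, Sncg at 105, 94.1, 104 and 119.6 FPKM, and the tubulin gene Tubb3 at 70.7, 66.6, 75.9 and 79.9 FPKM. In library 4, 17 of the 20 ganglion cell genes and 16 of 22 amacrine genes were at their highest, against 32.3% of all genes, and without library 4 the ganglion share was 0.220% ± 0.00533 (SD, n = 3).

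Glial lists differed in how they varied between libraries. The 25 Müller genes made up 0.991%, 0.957%, 1.102% and 1.088% of transcripts, with Glul, which recycles synaptic glutamate, at 602, 577, 765 and 811 FPKM, Apoe at 622, 493, 687 and 678 FPKM and Clu, the secreted chaperone clusterin, at 349, 326, 346 and 306 FPKM. The median CV of the 25 was 11.02%, against 7.49% for all genes. Libraries 3 and 4 were above libraries 1 and 2 for Glul, a grouping seen in the values and not tested. Of the 25 genes, 4 were highest in library 3 and 11 in library 4, against 19.2% and 32.3% of all genes. The 23 reactive gliosis genes, induced after injury in glia or, for Edn2, in photoreceptors, summed to less in libraries 3 and 4. They made up 0.163%, 0.164%, 0.113% and 0.0719% (mean 0.128% ± 0.0445, and 0.147% ± 0.0293 without library 4, SD, n = 3). Gfap, the filament protein of astrocytes and reactive Müller cells, was at 49.9, 47.5, 32.8 and 23.5 FPKM. The ratio of Gfap to Glul was 0.0829 and 0.0823 in libraries 1 and 2, and 0.0429 and 0.0290 in libraries 3 and 4. The astrocyte list was led by Aldoc at 163 ± 4.95 FPKM, which Müller glia also express, then by Gfap and Aldh1l1 (6.90 ± 1.19 FPKM).

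Within the reactive gliosis list, spread was wide for most members. Counts were enough for a CV in 19 genes, of which the median was 26.9% against 7.49% for all genes. A CV above 25% was found in 12 of the 19, against 4.46% of all genes, and 16 of the 19 were lowest in library 4, against 30.1%. Serpina3n, an acute-phase protease inhibitor and the most abundant member, was at 93.5, 92.3, 67.6 and 22.8 FPKM. Edn2, the endothelin that injured photoreceptors release, was at 77.3, 71.3, 49.6 and 46.1 FPKM, and Cp, the copper carrier ceruloplasmin, at 45.8, 50.4, 37.1 and 28.0 FPKM. In each of these genes libraries 1 and 2 were high, library 3 lay between and library 4 was low. Lcn2, the iron-binding lipocalin and named after values were seen, was at 23.7, 23.7, 18.2 and 2.74 FPKM, with library 4 far below the rest.

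**Figure D4:**
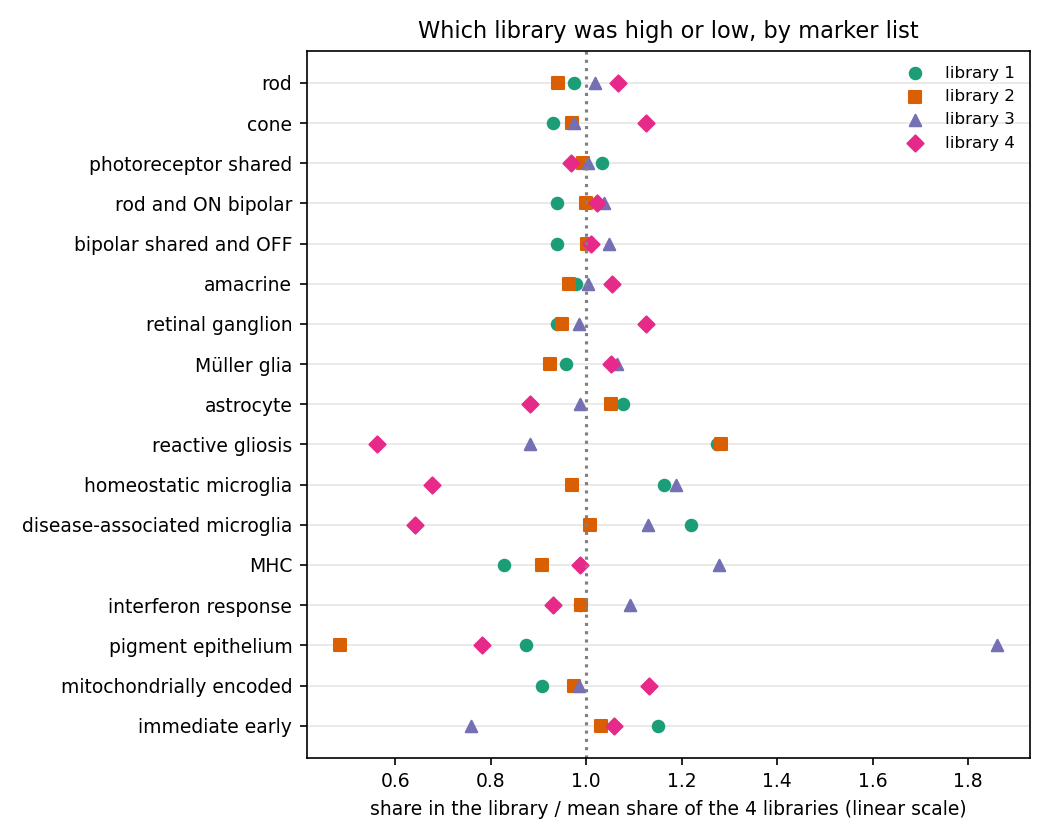
Share of each marker list in a library divided by its mean share in the 4 libraries, on a linear scale, with 1 point per library. Reactive gliosis runs from 1.28 in library 2 to 0.561 in library 4 and homeostatic microglia from 1.19 in library 3 to 0.678 in library 4, while rod, shared photoreceptor, bipolar and amacrine lists stay between 0.939 and 1.07 and pigment epithelium reaches 1.86 in library 3.

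Immune transcripts made up 0.340%, 0.320%, 0.385% and 0.282% of the total over 134 genes, 68 of them above 1 FPKM in every library. The homeostatic microglia list stood at 0.0965%, 0.0805%, 0.0985% and 0.0562%, so that library 4 lay below the other 3 (mean 0.0829% ± 0.0195, and 0.0919% ± 0.00985 without it, SD, n = 3). Ctss, a lysosomal protease, was at 41.6, 35.2, 45.5 and 31.0 FPKM, and the complement subunit genes C1qa and C1qb were at 44.9, 34.6, 44.9 and 23.8 and at 44.4, 32.0, 40.7 and 21.3 FPKM. The classical markers were scarce by comparison: Cx3cr1, the fractalkine receptor, was at 4.91, 3.62, 4.25 and 2.76 FPKM and Aif1 at 2.22, 1.96, 1.76 and 1.66 FPKM. Of the 21 genes with enough counts, 18 were lowest in library 4, against 30.1% of all genes, and the other 3 in library 2. Library 3 was only slightly above library 1 for the homeostatic share, at 0.0985% against 0.0965%, while it was below libraries 1 and 2 for gliosis. By member, 11 of the 21 were highest in library 1 and 10 in library 3, against 23.0% and 19.2% of all genes. Which of these 2 libraries was higher for microglia is thus unclear.

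The disease-associated microglia list, genes that microglia raise near dying neurons, stood at 0.0580%, 0.0479%, 0.0537% and 0.0305%. Its leading members were Ctsz, a lysosomal protease, at 38.0, 34.4, 37.8 and 28.9 FPKM, Spp1, osteopontin, at 34.3, 25.2, 23.5 and 12.8 FPKM, and the lysozyme gene Lyz2 at 16.02, 10.2, 14.5 and 8.20 FPKM. All 3 were lowest in library 4. Antigen presentation genes ordered the libraries differently, at 0.0787%, 0.0863%, 0.121% and 0.0939%. Their leading member B2m, the light chain of MHC class I, was at 97.5, 105, 162 and 129 FPKM, and the heavy chain genes H2-D1 and H2-K1, which share sequence with close relatives, were likewise highest in library 3 at 63.7 and 57.9 FPKM. Interferon response genes summed to 0.0645% to 0.0757%, with Ifitm3 at 52.1 ± 3.87, Bst2 at 19.2 ± 2.19 and Ifit3 at 17.1 ± 2.21 FPKM (SD, n = 4). Of 19 with enough counts, 11 were highest in library 3, against 19.2% of all genes. Their median CV was 10.6%, against 7.49% for all genes.

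Markers of infiltrating blood cells were near the limit of detection. Of 15 monocyte and neutrophil genes only Lyve1, which resident macrophages and lymphatic vessels also express, was above 1 FPKM in every library (5.45 ± 0.461 FPKM), Cd14 stood at 2.04, 0.976, 1.06 and 1.12 FPKM, Mrc1 at a mean of 0.389 FPKM, and Ccr2, Ly6c2, Retnlg and Chil3 were under 0.1 FPKM in all 4. Of 18 lymphocyte genes only Jchain was above 1 FPKM in every library, at 10.5, 10.4, 7.85 and 13.5 FPKM, with Cd8a next at 0.255 and Cd79a at 0.129 FPKM. Another 10 were under 0.1 FPKM in all 4, namely Cd3d, Cd3e, Cd3g, Cd8b1, Cd2, Trbc2, Ms4a1, Cd79b, Nkg7 and Ncr1, and 4 of the 18 had no count at all. A count of 0 over the 4 libraries together allows up to 0.0490 CPM, counts scaled to library size, and covers counting error only. Without Jchain the list held 0.000271% to 0.000345% of transcripts. Among cytokine genes the chemokine Cx3cl1 (30.4 ± 2.24 FPKM), the inhibitor Nfkbia (19.7 ± 3.36) and Il18 (6.92 ± 0.622 FPKM) led, and Il6 and Cxcl2 were under 0.1 FPKM in all 4.

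Vessels and neighbouring tissues were represented at low levels. The endothelial list made up 0.0315% to 0.0360% of transcripts, led by the VEGF receptor Kdr (29.2 ± 1.85 FPKM), the junction protein Cldn5 (15.6, 14.6, 16.4 and 17.4 FPKM) and Ly6c1 (9.09 ± 2.27 FPKM). The mural list, 0.106% to 0.116%, rested on Vtn at 254 ± 16.4 FPKM, which photoreceptors are also known to express, and without it made up 0.0126% to 0.0154%, with Rgs5 at 24.5 and Pdgfrb at 4.31 FPKM. Pigment epithelium genes differed more between libraries than any other of the 38 lists, at 0.0235%, 0.0130%, 0.0499% and 0.0210%. Ttr led at 31.6, 19.2, 57.4 and 37.9 FPKM, followed by Dct at 5.18, 1.53, 15.0 and 1.53 FPKM and Pmel at 5.41, 0.977, 15.1 and 0.616 FPKM, and Rpe65, the isomerase of the visual cycle, was at 3.79, 2.48, 10.7 and 4.23 FPKM. Library 3 was the highest for each of these genes. Of the 7 members above 1 FPKM in every library, 6 were highest in library 3, against 19.2% of all genes, and the other, Mitf, had a CV of 3.62%. Without library 3 the list made up 0.0191% ± 0.00548 (SD, n = 3).

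Other tissues gave little. Lens crystallins other than Cryab (31.2 ± 2.74 FPKM, a chaperone that retina also expresses) made up 0.00122% to 0.00359%, with Crybb1 at 0.851 and Crybb3 at 0.817 FPKM and with Crygd and Lim2 under 0.1 FPKM in all 4. Corneal and conjunctival epithelium genes stayed low as well, with Krt12 at 0.441, Lypd2 at 0.370 and Krt5 at 0.205 FPKM and Krt4, Krt14 and Pax9 under 0.1 FPKM. Globin transcripts, from blood, were present, with Hbb-bs at 25.03, 25.7, 34.8 and 32.5 FPKM, Hba-a1 at 15.4, 18.7, 25.2 and 24.9 FPKM and Hbb-bt at a mean of 4.26 FPKM. Of myelin genes, Cnp (10.0 ± 0.685 FPKM) and Mbp (4.35 FPKM) led, and the oligodendrocyte genes Olig1, Olig2, Mobp and Opalin were under 0.1 FPKM in all 4. Skeletal muscle genes were led by Mylpf at 1.83, Acta1 at 1.37 and Ckm at 0.664 FPKM, with Myh1, Myh2, Myh4 and Tnnc2 under 0.1 FPKM. Hepatocyte genes, the off-tissue control, summed to 0.000821% to 0.00128%, of which Apoa2 was at 2.10, Apoa1 at 0.206 and Apoc3 at 0.0808 FPKM, and 8 of 12 were under 0.1 FPKM in all 4 (Tat, Fgg, Fga, Fgb, Cyp2e1, Serpina1c, Ahsg and Cps1).

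Metabolic transcripts were abundant and even, with 1 exception. The 16 glycolysis genes made up 1.53%, 1.47%, 1.40% and 1.42% of transcripts with a median CV of 5.50%, and after Aldoa and Pkm the enolase Eno1 came next at 409 ± 16.3 FPKM. Gapdh stood at only 7.38 FPKM and the metallothionein Mt2 at 0.282 FPKM beside 137 FPKM for Mt1, all 3 picked after values were seen. Gapdh has many near-identical pseudogenes, and how reads with several matches were counted is not stated in the sources at hand. The 13 mitochondrially encoded protein genes held 7.39%, 7.95%, 8.02% and 9.22% of transcripts, highest in library 4 (8.15% ± 0.77, and 7.79% without it). Their listed levels were uneven. Subunit gene mt-Co1 stood at 5540.0 ± 546 FPKM, mt-Cytb at 4563 ± 522 and mt-Nd1 at 4111 ± 351 FPKM, whereas mt-Co2, mt-Co3 and mt-Atp8, which lie on the same strand, were at 155, 69.2 and 3.44 FPKM. The same limit on reads with several matches applies to these values, so they may not rank the transcripts. The one gene on the opposite strand, mt-Nd6, overlaps mt-Nd5 in the annotation and was at 1704 FPKM. Whether counting used the strand is not stated either, so its reads cannot be assigned with certainty.

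Among stress and survival genes, the antioxidant list made up 0.341%, 0.319%, 0.313% and 0.275%. Its members did not share that order: 5 of 21 were lowest in library 4, against 30.1% of all genes, and 7 were highest in library 1, against 23.0%. The list was led by the lipid peroxidase Gpx4 (163 ± 9.87 FPKM), by Mt1 at 171, 176, 130.1 and 70.8 FPKM and by Gpx3 (113 ± 14.3 FPKM). Cell death genes summed to only 0.0427% to 0.0476%, with the DNA repair enzyme Parp1 (20.9 ± 2.56 FPKM) and the pore-forming Bax (16.1 ± 0.771 FPKM). Survival and trophic genes were led by Vegfa at 53.6 ± 4.74, Xiap at 39.3, 39.4, 41.3 and 51.5 and Mcl1 at 34.1 ± 3.38 FPKM. Cell cycle genes were scarce apart from Pcna (31.5 ± 1.38 FPKM) and Ccna2 (5.08 ± 0.132 FPKM), with Mcm2 at 1.49 FPKM and Cenpf and Aurkb under 0.1 FPKM in all 4. Immediate early genes, which rise within minutes of stimulation, made up 0.0682%, 0.0611%, 0.0450% and 0.0628%. Of 9 with enough counts, 5 were lowest in library 3 and 3 in library 4, against 20.9% and 30.1% of all genes. Another split was 5 highest in library 1 and 4 in library 4, against 23.0% and 32.3%. Nr4a1 was at 30.1, 26.2, 20.9 and 37.3, Egr1 at 25.9, 22.6, 15.5 and 41.4 and Junb at 38.9, 32.5, 17.8 and 16.1 FPKM. Housekeeping genes gave a yardstick, with a median CV of 5.78% over 14 genes, Eef1a1 and Eef2 (363 ± 14.7 FPKM) at CVs of 3.80% and 4.34%, and Rplp0 at 143 ± 6.12 FPKM.

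Noncoding transcripts made a smaller contribution, with long intergenic RNAs at 1.19% ± 0.0742 of transcripts (SD, n = 4). Malat1, a nuclear RNA of nearly all cells, was at 281, 316, 269.8 and 269 FPKM and Mir124a-1hg, which spans a neuronal microRNA gene, at 252, 259.5, 252 and 214 FPKM. CVs of Malat1 and Mir124a-1hg were 7.62% and 8.16%, near the median of all genes. The highest noncoding entry by FPKM was Gm23935, a 57-base entry within Zc3h7a annotated as a microRNA, at 3075, 488, 1557 and 1781 FPKM. Its length is under that of 1 read, so its FPKM is not a level comparable with other genes. CT010467.1, annotated as ribosomal RNA, was at 258 ± 17.3 FPKM, and the processed pseudogene Gm10123 was at 115.1, 348, 108 and 328 FPKM, high in libraries 2 and 4 and low in 1 and 3. A processed pseudogene can share reads with its parent gene, so that value is uncertain.

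Most genes differed little between libraries. Over the 13613 genes with at least 1 FPKM and 10 counts in all 4, the median CV was 7.49%, against 4.48% that counting alone gives at these depths. It fell from 12.5% for genes of 1 to 3 FPKM to 5.65% for those of 10 to 30 FPKM and was 7.12% above 100 FPKM, where counting alone gives 1.19%. The biological coefficient of variation estimated by edgeR was 0.0843 over 16333 genes and 0.0648 without library 4. Photoreceptor lists lay on both sides of the typical value, with median CVs of 8.56% for rods, 15.2% for cones and 6.21% for shared genes, beside 9.96% for inner neurons, 17.2% for glia and 15.0% for immune genes.

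**Figure D5:**
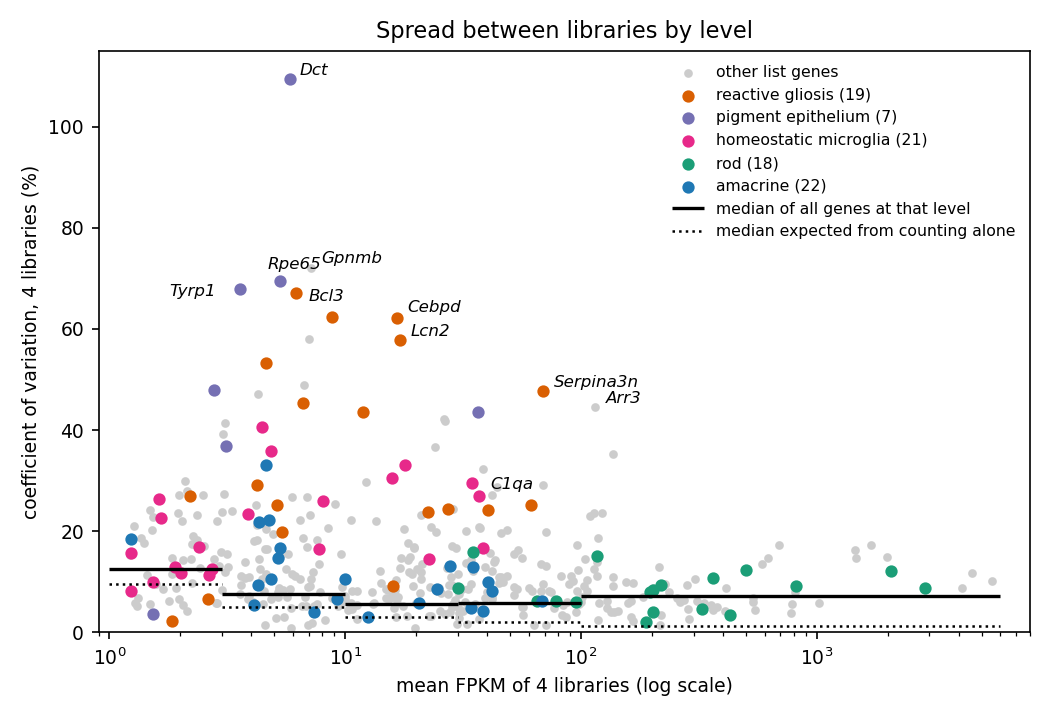
CV over the 4 libraries (percent, linear scale) against mean FPKM (log scale) for members of the marker lists with enough counts. Solid lines give the median CV of all genes in that range of level and dotted lines the median that counting alone gives. Rod genes reach at most 15.9% (Samd7), while reactive gliosis and pigment epithelium genes reach CVs of 67.2% (Bcl3) and 109% (Dct).

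The coding genes of widest spread with at least 50 counts in each library came from a few sources. Pigment cell genes gave 4 of the first 10: Dct (CV 109%), Rpe65 (69.4%), Tyrp1 (67.8%) and Mfrp (58.7%), all highest in library 3. Gliosis genes gave 3: Bcl3, Socs3 and Cebpd, which act in or below cytokine signalling through STAT3, were at 10.3, 8.99, 3.84 and 1.57, at 13.8, 13.2, 4.89 and 3.25 and at 29.8, 19.8, 9.48 and 7.34 FPKM. For each, library 1 was highest and library 4 lowest. Gpnmb, a lysosomal glycoprotein of disease-associated microglia and of pigment cells, was at 10.1, 4.27, 12.8 and 1.55 FPKM. The remaining 2, Srp54b and Rps27rt, have near-identical copies in the genome. Rps27rt was at 132, 53.7, 139 and 269.7 FPKM while its relative Rps27, named after values were seen, was at 102, 102, 76.0 and 38.3 FPKM, so counts of either are uncertain.

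Among the 100 coding genes of largest CV, out of 11817, 7 were reactive gliosis, 6 pigment epithelium and 4 homeostatic microglia genes, and 74 were in none of the lists. Under the other filter, of 1 FPKM and 10 counts, these 3 lists held 19, 7 and 21 of 13613 genes. Library 4 was the lowest in 39 of them, against 30.1% of all genes, and the highest in 30, against 32.3%. Library 3 was the highest in 33, against 19.2% of all genes, and the lowest in 10, against 20.9%. The 10 genes of smallest CV were Hace1, Nckap1, R3hdm1, Usp1, Xndc1, Smad1, Ik, Fastk, Tef and Pcdhga7, at CVs of 0.33% to 0.64%. Each lay below the CV that counting alone gives on average at its depth, 1.35% to 9.46%, so their order carries no information on which gene was steadiest. Nckap1, of the actin-regulating WAVE complex, was at 43.9, 43.7, 43.7 and 43.7 FPKM.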

How the data were processed

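Retinal RNA of 8 rd10 libraries was sequenced after poly(A) selection, and the 4 PBS libraries were used. Counts of fragments per gene are whole numbers deposited by the authors without normalization, made from reads aligned to mm10, per the submitters' processing notes. FPKM values deposited by the authors equalled, within each library, those counts scaled by gene length and 1 constant per library. The aligner, counter, annotation and strand setting are not given in the sources used here. Each table holds 4 further columns of per-sample values, which were not used.

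Levels and shares were computed from the deposited FPKM, with no pseudocount. The CV was computed on counts scaled by the trimmed mean of M-values of edgeR 4.0.16 in R 4.3.3, over genes with at least 1 FPKM and 10 counts in each library, and the biological coefficient of variation from an edgeR fit with an intercept only. Tables and figures used Python 3.11.15, pandas 2.3.3, numpy 2.4.6, scipy 1.17.1 and matplotlib 3.10.9, and DESeq2 1.42.0 gave alternatives. Computations across genes were tested on simulated data. No comparison between groups and no test was made. Of 618 listed genes, 617 matched a symbol in the tables, and Aldoa, on 2 rows, was taken from the row with more counts. Members and lists were chosen with earlier results of these data known. Genes were named by rule: the 20 nuclear coding genes and 5 noncoding genes of highest mean FPKM, the 3 highest of each list and its members under 0.1 FPKM in all 4, the 10 of largest and 10 of smallest CV among coding genes with at least 50 counts in each library, and 15 marker genes fixed by name. Some genes this rule selects are not reported here. Others were picked after values were seen. Alternatives were other denominators, filters and scalings, leaving out the leading member of a list, and leaving out each library. Totals were 14640235 to 15948291 counts, so that a floor of 3 counts was 0.188 to 0.205 CPM in a single library.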

Additional observations from a re-analysis of the deposited data

Results flagged for a closer look

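In 14 of 217 sets of 4 library values, 1 library lay so far from the nearest of the others that the gap took up nearly the whole range of the set. For independent, normally distributed values chance gives this in about 1 in 20 sets, and 14 of 217 is not far above that rate. Some sets share genes and some genes were chosen for their spread, so the flags are description only. Of the 14, 10 were in library 4, 3 in library 1 and 1 in library 3.

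Library 4 was far below the others for Xist, at 0.0118 FPKM against 139 to 163 FPKM, and far above for the Y-linked Ddx3y at 17.4 FPKM and Eif2s3y at 28.9 FPKM, both listed at 0 in the others. Among cone and neuronal genes it was above for the cone arrestin Arr3 at 191 FPKM and for the neurofilament gene Nefl at 136 FPKM, and below for the ratio of Cnga1 to Cnga3 at 13.6 and for Mir124a-1hg at 214 FPKM. It was also above for the caspase inhibitor Xiap at 51.5 FPKM, the endothelial Ly6c1 at 12.5 FPKM and the globin Hbb-bt at 7.22 FPKM. Arr3 and Xiap are X-linked. Whether these genes moved with the sex-linked transcripts was not tested, and with 1 such library they cannot be told apart.

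Library 1 was the highest for Cd14 at 2.04 FPKM and for Nckap1 at 43.9 FPKM and the lowest for Pdgfrb at 3.38 FPKM. The Nckap1 values span 43.7 to 43.9 FPKM. Library 3 was the highest for Mfrp at 4.24 FPKM. In that library 6 of the 7 pigment epithelium genes above 1 FPKM in every library were also at their highest, against 19.2% of all genes.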

How the results depend on the processing

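As percent of counts in place of FPKM, which weights long genes more, the rod list made up 3.93%, the cone list 0.260%, inner neurons 0.748%, glia 1.06% and immune genes 0.185%. With nuclear protein-coding genes alone as the denominator these were 4.02%, 0.437%, 0.807%, 1.49% and 0.397%. Without the most abundant member of each they were 2.26%, 0.257%, 0.629%, 0.985% and 0.285%. The median CV was 25.3% with no filter on low values, and the biological coefficient of variation was 0.0520 from the gene-wise dispersions of DESeq2. Leaving out 1 library at a time gave a median CV from 6.11% without library 4 to 7.63% without library 3, and a biological coefficient of variation from 0.0648 without library 4 to 0.0931 without library 3. For the 5 shares it gave 3.28% to 3.42%, 0.350% to 0.373%, 0.659% to 0.685%, 1.23% to 1.26% and 0.314% to 0.349%. Leaving out 1 of 4 values cannot move a mean by as much as 1 SD, so these ranges are description only. A denominator of genes of at least 200 bases, chosen after values were seen, kept these 5 shares within 1 SD of the reported means. Genes counted as expressed were 13956 at 1 FPKM, 19693 at 0.1 FPKM and 16435 at 10 counts. No paired analysis was possible because the values come from 1 group and no test. At these depths, genes near the floor of 3 counts cannot be told from absent ones, and the 4 libraries limit every SD.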
